A study of Brassica napus with 6 samples.

Results

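The aliphatic glucosinolate genes described here are the regulators and enzymes that make methionine-derived glucosinolates, the sulfur-rich defence compounds of mustards and their relatives. They were chosen as every gene of the deposited table that carries 1 of 10 Arabidopsis gene codes, those of MYB28 (AT5G61420), MYB29 (AT5G07690), BCAT4 (AT3G19710), MAM1 (AT5G23010), MAM3 (AT5G23020), CYP79F1 (AT1G16410), CYP83A1 (AT4G13770), UGT74C1 (AT2G31790), SOT17 (AT1G18590) and SOT18 (AT1G74090). The rule found 73 of the 145279 genes in the table, under 9 of the 10 codes, and no gene of the table carried the MAM3 code. Transcript levels came from poly-A RNA of single, very young leaves (leaf 3 of the plant) of a near-isogenic pair of doubled haploid lines of Brassica napus, oilseed rape, which holds an A and a C subgenome and so usually several copies of each Arabidopsis gene. The hairy line is DH6-47, with about 600 trichomes per leaf, and DH6-110 is the glabrous line. The original parents of both were Quantum/LG3260 and CN113136, and the labels give the same growth conditions for both and no treatment. Each phenotype is represented by 1 line, so a difference between lines is not by itself a difference due to trichomes. Leaves hairy 1, hairy 3, glabrous 1 and glabrous 3 had values, 2 per line, and the replicate 2 leaves were not analysed here.

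Aliphatic glucosinolates start from methionine. BCAT4 deaminates it, MAM synthases lengthen its side chain in repeated rounds with an isomerase and a dehydrogenase, and CYP79F1 and CYP83A1 turn the lengthened amino acid into an activated oxime. A thiol is then released, UDP-glucosyltransferases such as UGT74C1 add glucose, and the sulfotransferases SOT17 and SOT18 add sulfate to complete the core structure. In Arabidopsis the MYB28 and MYB29 transcription factors switch these genes on together.

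All values are TPM, abundances per transcript length that the authors scaled within each leaf. They summed to 954250 to 962645 over the genes of each leaf, and the sequencing depth behind them is unknown. Markers of leaf mesophyll were abundant in every leaf, although RBCS1A was listed at 0 in every leaf but glabrous 1, where it read 2.03 TPM. The 5 markers summed to 4211 and 5079 TPM in hairy 1 and hairy 3, and to 6739 and 9302 TPM in glabrous 1 and glabrous 3. This sum was thus lower in both hairy leaves than in both glabrous leaves. Its bearing on the line comparison was not tested. The glabrous leaves differed from each other more than the hairy leaves did. Over the 15739 Arabidopsis codes tested, glabrous 3 minus glabrous 1 had a median of 0.48 on the log2(TPM + 1) scale, and hairy 1 minus hairy 3 had a median of 0.31. These shifts of whole leaves are the background for the leaf differences given below.

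Aliphatic glucosinolate transcripts were far apart in the 2 glabrous leaves, and the hairy leaves lay between them. Summed over copies, 8 of the 9 genes were highest in glabrous 3, and 8 of 9 were lowest in glabrous 1. For 7 of the 9 both held, so that both hairy leaves fell between the glabrous ones. Over all tested codes this pattern was found in 18.7%. It was also found in 12 of the 17 sums of other pathway genes described below, so it is not particular to the chosen genes. BCAT4 was 176-fold higher in glabrous 3 than in glabrous 1, and CYP79F1 was 111-fold higher. In whole leaves, fewer cells that express a gene and less RNA of it per cell cannot be told apart.

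**Figure D1:**
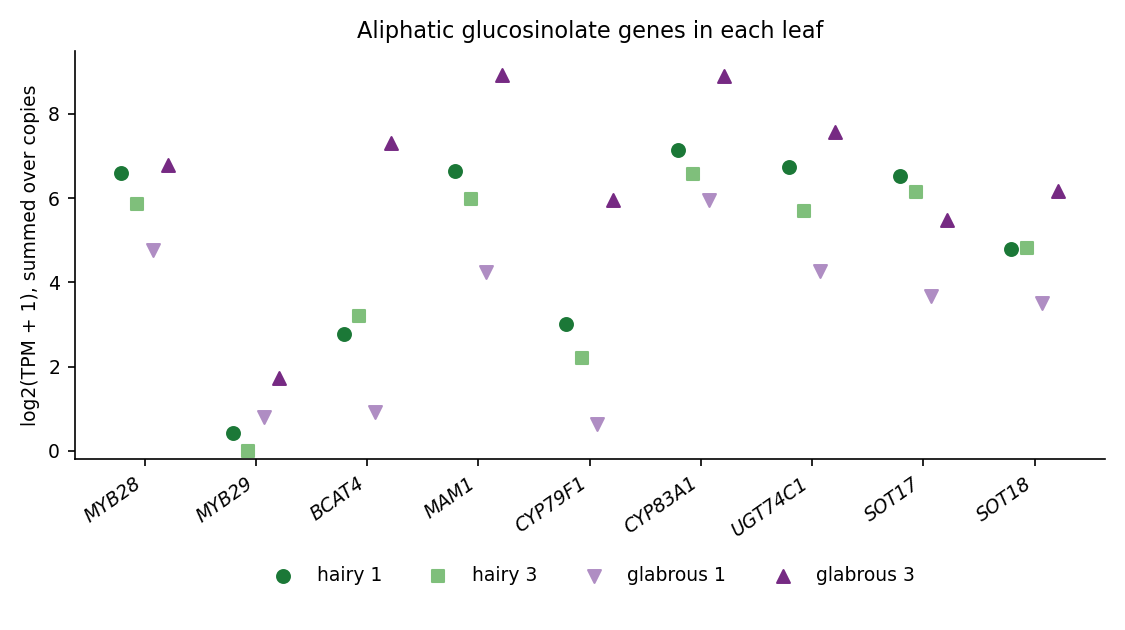
Level of each gene in each of the 4 leaves, as log2(TPM + 1) of the sum over its copies. Points are single leaves, and for 7 of the 9 genes both hairy points lie between the glabrous 1 point at the bottom and the glabrous 3 point at the top, while SOT17 is highest in the hairy leaves and MYB29 is low throughout.

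For MYB28, the main activator of the pathway in Arabidopsis, the hairy leaves 1 and 3 read 96.4 and 57.3 TPM and the glabrous leaves 1 and 3 read 26.3 and 109 TPM. Wherever 4 values follow each other below, they stand in this order of leaves. The lines overlapped, and the glabrous leaves differed 4.16-fold. MYB29, its close relative, read 0.34, 0, 0.75 and 2.32 TPM. Each of its 4 copies stayed at or under 1.02 TPM in every leaf, and none passed the filter for testing, which asks for at least 1 TPM in at least 2 leaves.

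The MYB28 copies did not share 1 pattern. The copy on an unplaced scaffold (BnaS00111g0090.4DH) was the most abundant, at 80.7 and 43.8 TPM in hairy 1 and hairy 3 and 21.3 and 60.2 TPM in glabrous 1 and glabrous 3. It gave 83.7%, 76.5%, 81.0% and 55.0% of the MYB28 sum in these leaves. The A03 copy (BnaA03g048082.4DH) read 4.72, 3.02, 1.40 and 19.8 TPM, and the C07 copy (BnaC07g062410.4DH) read 1.95, 2.46, 0.70 and 20.3 TPM. These copies stood far above the other leaves in glabrous 3 alone, by 14.1-fold and 28.8-fold over glabrous 1, whereas the unplaced copy differed 2.83-fold between the same leaves and was highest in hairy 1. The C09 copy (BnaC09g008660.4DH) read 8.13, 8.00, 2.89 and 8.61 TPM. Of its transcript models, model 3 read 4.97, 5.53 and 5.88 TPM in the other leaves and was listed at 0 in glabrous 1, while model 2 lay between 2.47 and 3.06 TPM in all 4.

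BCAT4, the aminotransferase of the entry step to chain elongation, had the steepest difference between the glabrous leaves among the 9 sums. It read 5.84, 8.19, 0.89 and 157 TPM. Glabrous 3 was 22.3-fold above the hairy mean, and the hairy mean was 7.88-fold above glabrous 1. All 4 copies with a value above 0 were highest in glabrous 3 and lowest in glabrous 1. The A05 copy (BnaA05g044050.4DH) read 2.09, 4.47, 0.33 and 51.5 TPM, and the C05 copy (BnaC05g062670.4DH) 1.56, 2.55, 0.17 and 42.8 TPM. The C03 copy (BnaC03g056470.4DH) read 1.20, 0.87, 0.28 and 34.8 TPM. The A03 copy (BnaA03g042450.4DH) reached 27.6 TPM in glabrous 3 but stayed under 1 TPM in the other leaves, so it was not tested.

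MAM1, the synthase that condenses the chain with an acetyl group, read 99.2, 61.6, 17.9 and 481 TPM. It was 26.9-fold higher in glabrous 3 than in glabrous 1. The A03 copy (BnaA03g047460.4DH), at 82.2, 51.0, 14.8 and 299.5 TPM, gave 82.7% to 82.8% of the copies' TPM in the first 3 leaves and 62.2% in glabrous 3. The A02 copy (BnaA02g054510.4DH) read 8.88, 6.31, 1.57 and 93.4 TPM, a 59.6-fold difference between the glabrous leaves. The main copy differed 20.3-fold, less than the other tested ones, and the unplaced (BnaS00008g0530.4DH) and C07 (BnaC07g061810.4DH) copies differed 59.1-fold and 50.5-fold. Of the 17 MAM1 genes, 8 were listed at 0 in all leaves. As no gene carries the MAM3 code, copies closer to MAM3 may be counted under MAM1, which was not tested.

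Of the cytochrome P450 genes, CYP79F1, which makes the aldoxime, was low outside glabrous 3. It read 7.07, 3.58, 0.55 and 61.2 TPM. Its A06 copy (BnaA06g013380.4DH) read 4.18, 2.24, 0.07 and 31.1 TPM, and its C05 copy (BnaC05g016550.4DH) 2.90, 1.34, 0.47 and 30.03 TPM. The copies were near equal in glabrous 3, and the C05 copy made up 86.5% of the small sum in glabrous 1.

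CYP83A1, which oxidises the aldoxime, was the most abundant of the genes in both hairy leaves and in glabrous 1. It read 141 and 93.6 TPM in the hairy leaves, 61.3 TPM in glabrous 1 and 478 TPM in glabrous 3, a 7.80-fold difference between the glabrous leaves. The A04 copy (BnaA04g009740.4DH) read 80.3, 54.9, 31.1 and 244 TPM, and the C04 copy (BnaC04g057870.4DH) 52.4, 34.0, 25.8 and 198 TPM. The main copies of both subgenomes and the lesser A04 copy (BnaA04g037190.4DH) differed by nearly the same factor, 7.84-fold, 7.67-fold and 7.49-fold.

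UGT74C1, a glucosyltransferase of the last steps, read 106, 51.1, 18.2 and 188 TPM. The glabrous leaves differed 10.4-fold and the hairy leaves 2.07-fold. Most of it came from the C04 copy (BnaC04g020690.4DH) at 86.1, 39.7, 14.1 and 152 TPM, with the A05 copy (BnaA05g013910.4DH) at 16.8, 8.85, 3.17 and 32.1 TPM. The C04 copy has a pair of transcript models with values. Model 1 read 61.5, 34.2, 14.1 and 76.3 TPM, and model 2 read 24.7, 5.52, 0 and 75.4 TPM. Model 2 therefore equalled model 1 only in glabrous 3 and was listed at 0 in glabrous 1.

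The sulfotransferases of the final step differed from each other in their order of leaves. SOT17 read 90.5 and 69.5 TPM in hairy 1 and hairy 3 against 11.8 and 43.9 TPM in glabrous 1 and glabrous 3. It was the only gene of the 9 whose sum was higher in both hairy leaves than in both glabrous leaves. SOT18 read 26.7 and 27.1 TPM in the hairy leaves and 10.3 and 70.9 TPM in the glabrous leaves, so the hairy leaves lay between. The ratio of SOT17 to SOT18 was 3.39 and 2.56 in the hairy leaves 1 and 3, and 1.14 and 0.62 in the glabrous leaves 1 and 3. With 2 leaves per line, no permutation test of this ratio could pass a threshold of 0.05, and none was run.

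**Figure D2:**
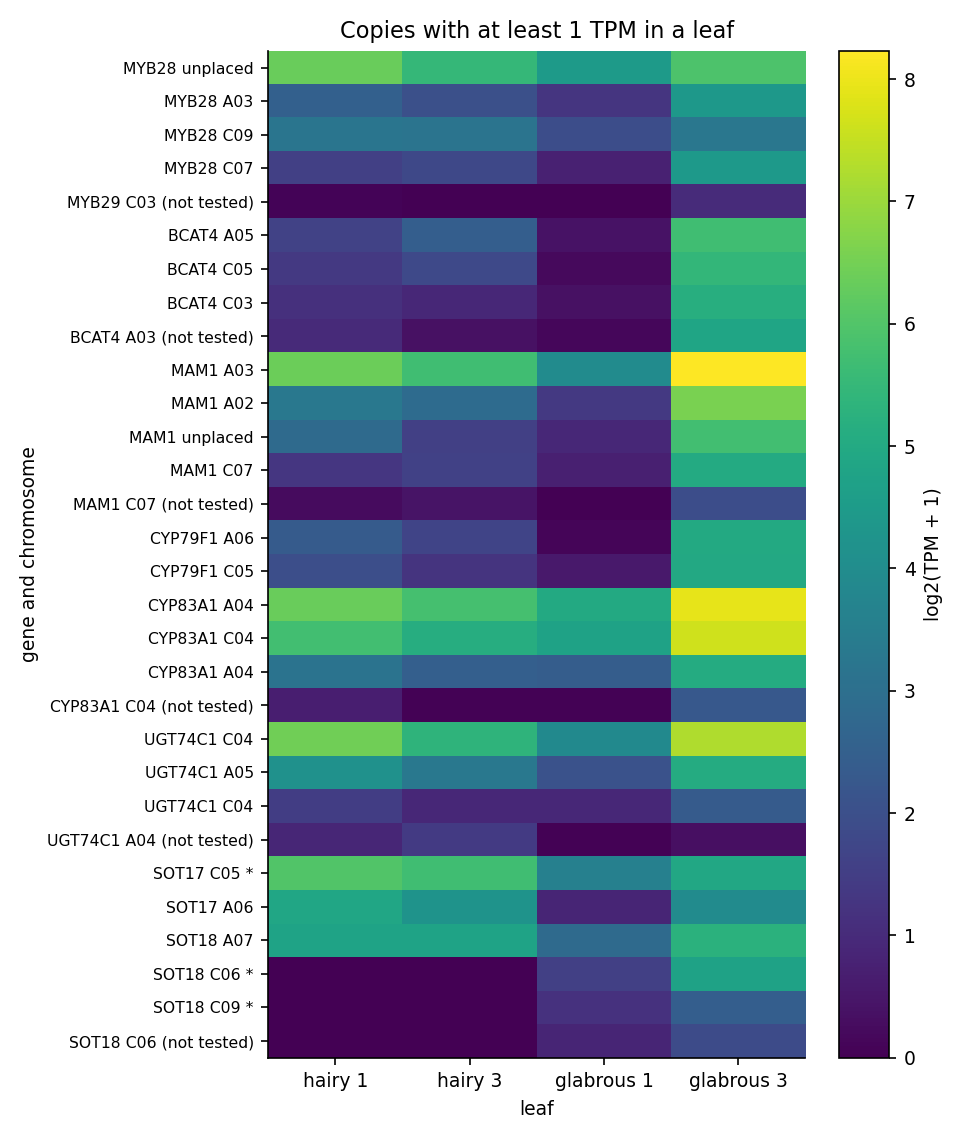
Level of each of the 30 copies that reached 1 TPM in a leaf, as log2(TPM + 1) by colour, with the 4 leaves in columns and the copies grouped by gene in rows. An asterisk marks the 3 copies called between the lines, and the SOT18 copies on C06 and C09 are at 0 in both hairy leaves.

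The line comparison asked whether the genes differ between a hairy and a glabrous leaf. In limma on log2(TPM + 1), with Benjamini-Hochberg adjustment over all 44247 tested genes and a call at an adjusted p under 0.05, 1 of the 24 tested copies had a higher level in the hairy line and 2 a lower one. Over all tested genes 5.24% were called higher and 4.48% lower. Of the 73 copies 49 were not tested: 30 were listed at 0 in every leaf, 13 stayed between 0 and 1 TPM, and 6 reached 1 TPM in 1 leaf, which was glabrous 3 for 5 of them. The filter therefore left out copies expressed in glabrous 3 alone. The lines did not overlap in 4 of the 24 tested copies, against 38.8% of all tested genes, and in 2 of the 9 sums, MYB29 and SOT17, against 29.5% of all tested codes.

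The copy that was higher was SOT17 on C05 (BnaC05g019120.4DH). It read 62.4 and 51.6 TPM in hairy 1 and hairy 3 and 10.98 and 29.3 TPM in glabrous 1 and glabrous 3. The log2 change was 1.60 (SE 0.45, limma adjusted p = 0.0429), and 6 of 13 alternative settings did not make this call; among them were the fits without glabrous 1 (0.93), hairy 1 or hairy 3. Its A06 counterpart (BnaA06g015610.4DH) read 28.1, 17.9, 0.82 and 14.6 TPM and did not pass (2.13, SE 0.86, adjusted p = 0.222), but it did with the replicate number as a block (adjusted p = 0.0282).

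Both lower copies were SOT18. The C06 copy (BnaC06g063470.4DH) was listed at 0 in both hairy leaves and read 1.95 TPM in glabrous 1 and 25.9 TPM in glabrous 3 (limma adjusted p = 0.0484). The C09 copy (BnaC09g026760.4DH) was also listed at 0 in both hairy leaves and read 1.25 and 4.52 TPM in the glabrous leaves (adjusted p = 0.0272). Each had passed the filter through the glabrous leaves alone, so a difference was built into its being tested, and 6 of 12 alternative settings did not call each copy, the fits without glabrous 3, hairy 1 or hairy 3 among them. A second C06 copy (BnaC06g063500.4DH), with 0.82 and 2.65 TPM in the glabrous leaves and 0 in the hairy ones, was not tested. The A07 copy (BnaA07g046630.4DH) carried SOT18 in the hairy leaves, at 26.1 and 26.6 TPM against 6.16 and 37.2 TPM.

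The surroundings of these copies differed. Of the 50 tested genes nearest to the C06 SOT18 copy by identifier, 84% were lower in the hairy line, so the copy lies in a stretch of C06 in which most tested genes were lower. Around the C09 SOT18 copy 4% of 50 neighbours were lower and none higher. Around the SOT17 copy on C05 4% were higher and 8% lower. For the other tested copies that could be placed on a chromosome, at most 12% of neighbours were called higher and at most 4% lower. Order along the chromosomes was read from the gene identifiers, and reads of near-identical copies may have been placed on either.

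Summed over copies, none of the 8 genes tested differed between the lines in the limma fit over 15739 codes, in which 1.8% were higher and 0.241% lower. At an unadjusted p under 0.05, 1 was higher, SOT17, and 0 were lower. The mean of SOT17 was 80.0 ± 14.9 TPM in hairy and 27.9 ± 22.7 TPM in glabrous leaves (SD, n = 2; log2 change 1.74, SE 0.51, limma adjusted p = 0.127). BCAT4 read 7.02 ± 1.66 against 78.7 ± 110 TPM (-1.12, SE 2.54, adjusted p = 1.00), with an SD of the glabrous leaves larger than their mean. The SE of the 8 sums ran from 0.51 to 2.54, where the median SE over all tested codes was 0.49. For most of these genes a difference of several fold between the lines was thus not detectable.

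Which way the genes differed depended on which glabrous leaf was used. Without glabrous 1, 5 of 9 sums were lower in the hairy line and 0 higher in limma, while 1.48% of all codes were lower and 2.09% higher. BCAT4 then changed by -4.31 (SE 0.57, adjusted p = 4.23e-11), CYP79F1 by -3.35 (SE 0.61, adjusted p = 4.88e-06) and MAM1 by -2.61 (SE 0.40, adjusted p = 3.39e-08), and CYP83A1 and UGT74C1 were lower as well. Without glabrous 3, 6 of 8 sums were higher and 0 lower, while 3.65% of all codes were higher and 0.311% lower. SOT17 then changed by 2.65 (SE 0.49, adjusted p = 7.82e-06), BCAT4 by 2.07 (SE 0.63, adjusted p = 0.0317) and MAM1 by 2.07 (SE 0.47, adjusted p = 7.77e-04), and MYB28, CYP79F1 and UGT74C1 were also higher. These fits set 2 leaves against 1, ask for 1 TPM in 1 leaf, and assume that the lone leaf varies like the hairy ones. Of the single copies, 14 were lower and 0 higher without glabrous 1, where 3.27% of all genes were lower and 2.27% higher. Without glabrous 3, 5 copies were higher and 0 lower, where 5.03% of all genes were higher and 3.11% lower. No copy was called without hairy 1 (1.55% of all genes higher, 1.48% lower) or without hairy 3 (1.67% and 1.37%). SOT17 was the only tested sum with a positive change in both fits, and without glabrous 1 its change was 0.84 and did not pass.

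**Figure D3:**
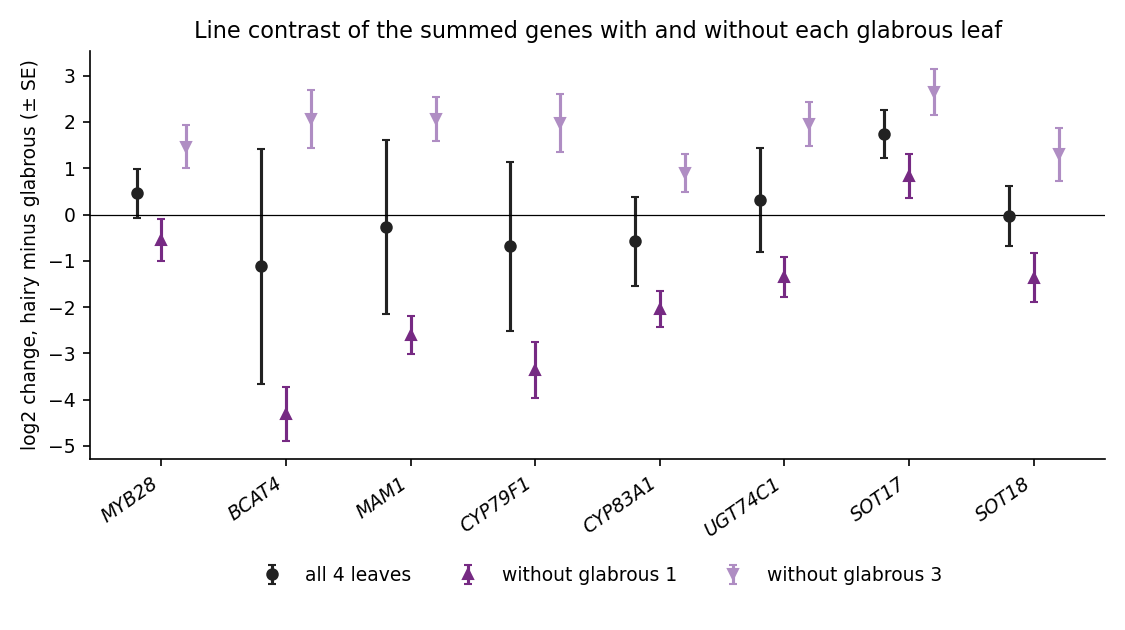
Log2 change of each summed gene, hairy minus glabrous, from all 4 leaves and from the fits without glabrous 1 or without glabrous 3; bars are ± SE. For 7 of the 8 genes the change is below 0 without glabrous 1 and above 0 without glabrous 3, and SOT17 is above 0 in each fit.

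The other genes of the pathway differed unevenly between the glabrous leaves. They were taken as a list of 24 Arabidopsis codes, of which 17 are in the table with 72 genes. No gene carried the code of MYB76, IPMI SSU3, IPMDH3, CYP79F2, GSOX3, GSOX4 or AOP2. Copies closer to these may be counted under related codes, such as AOP2 copies under AOP3, which was not tested. BASS5, the transporter that brings the chain-elongation substrate into the plastid, read 5.31, 2.46, 1.29 and 78.8 TPM, which is 61.3-fold between the glabrous leaves. AOP3, a side-chain dioxygenase, read 19.3, 19.0, 4.48 and 193 TPM (43.2-fold), and IPMDH1, the dehydrogenase of chain elongation, 14.5, 10.2, 2.82 and 88.1 TPM (31.3-fold). The small isomerase subunit IPMI SSU2 read 39.7, 28.2, 14.9 and 234 TPM, and the S-oxygenase GSOX1 read 5.59, 3.29, 1.14 and 15.4 TPM. These genes act on methionine-derived chains, and these 5 had their highest level in glabrous 3 and their lowest in glabrous 1. BASS5 and IPMDH1 were singled out after their values were seen.

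Besides AOP3 and IPMI SSU2, the 8 most abundant genes of the list include 6 that differed by 1.18-fold to 3.72-fold between the glabrous leaves. GSTU20, a glutathione transferase, read 1377, 1287, 908 and 1964 TPM, 2.16-fold between the glabrous leaves. GGP1, which trims the glutathione conjugate, read 361, 416, 174 and 263 TPM (1.51-fold), and the C-S lyase SUR1 92.8, 65.1, 36.8 and 137 TPM (3.72-fold). BCAT3, an aminotransferase that also serves branched-chain amino acids, was nearly level at 118, 93.5, 102 and 121 TPM. The large isomerase subunit IPMI LSU1, which also acts in leucine synthesis, read 423, 293, 240 and 630 TPM, and UGT74B1 read 112, 70.4, 51.9 and 102 TPM. GSOX5, an S-oxygenase of aliphatic side chains like GSOX1, differed 2.09-fold, GSOX2 6.97-fold and GSTF11 26.0-fold, and SOT17 of the chosen set 3.72-fold, as SUR1 did.

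**Figure D4:**
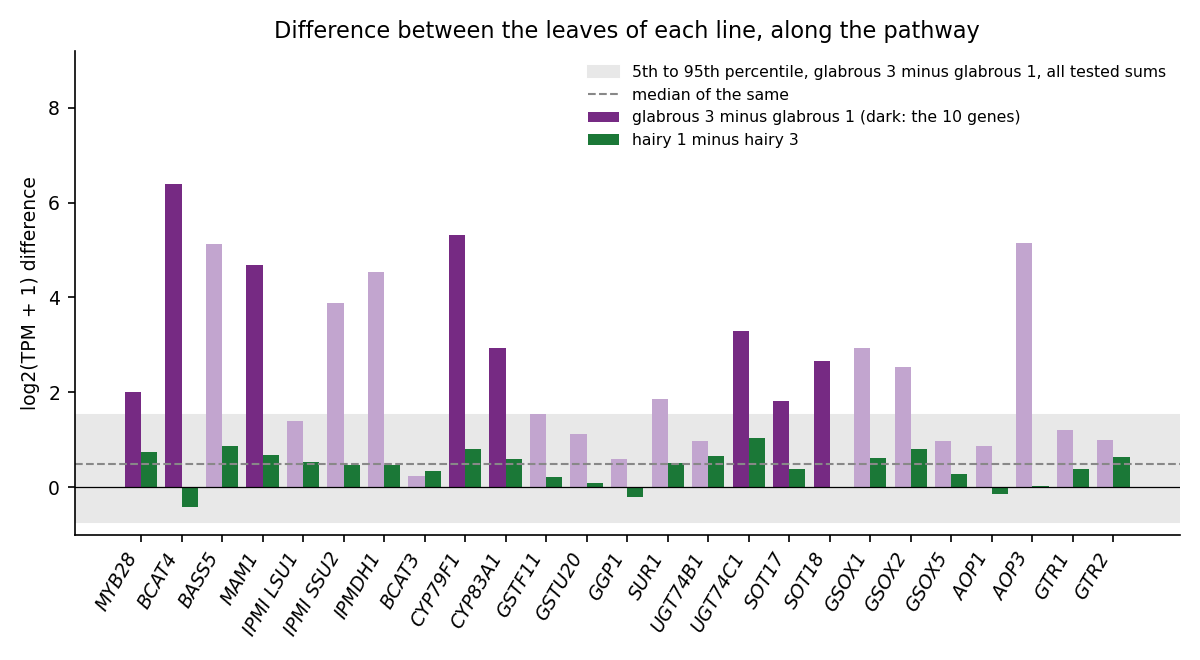
Difference in log2(TPM + 1) between the leaves of each line for summed genes in pathway order, with glabrous 3 minus glabrous 1 in purple (dark for the chosen genes) and hairy 1 minus hairy 3 in green; the grey band spans the 5th to 95th percentile of the purple quantity over all tested codes, from -0.73 to 1.52. The 8 tested genes of the chosen set lie above the band, from 1.81 for SOT17 to 6.38 for BCAT4, while the hairy differences stay at or under 1.03.

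Between the lines, limma called 3 of the 47 tested copies of the other pathway genes higher in hairy leaves and 0 lower, and 6 and 0 at an unadjusted p under 0.05. Over all 44247 tested genes the calls were 5.24% higher and 4.48% lower, with 4371 and 3317 genes at an unadjusted p under 0.05, so the share of these copies called higher was near that of all genes. Their median log2 change was -0.08, that of the 24 tested copies of the chosen genes -0.66 and that of all tested genes 0.03. GGP1 was higher in its C03 copy (BnaC03g111120.4DH), at 48.4 and 66.8 TPM in the hairy leaves against 14.0 and 19.9 TPM (1.71, SE 0.38, adjusted p = 0.0111). This copy did not pass in 3 of 13 alternative settings, without glabrous 1 (adjusted p = 0.103), hairy 1 (0.0996) or hairy 3 (0.297). Its A08 copy (BnaA08g026590.4DH) read 4.72 and 7.64 TPM against 0.19 and 0 TPM (adjusted p = 0.00194), and did not pass in 1 of 12 settings, without hairy 3 (adjusted p = 0.0805). The glucosinolate transporter GTR2 was higher in a C02 copy (BnaC02g081220.4DH), at 4.05 and 1.69 TPM against 0.32 and 0.15 TPM (1.58, SE 0.44, adjusted p = 0.0427), a call that 8 of 12 alternative settings did not make, each fit without 1 leaf among them. The GGP1 A08 and GTR2 C02 copies passed the filter through the hairy leaves alone, so a difference was built into their being tested. The GGP1 and GTR2 sums did not pass (0.86 and 1.12, adjusted p = 0.50 and 0.523).

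The 2 glabrous leaves were set side by side as a description with no test, since each is a single leaf. Of the 44247 tested genes, 1.43% were higher in glabrous 3 by at least 2 on the log2(TPM + 1) scale. Of the 24 tested copies of the chosen genes 19 were, and of the 47 copies of the other pathway genes 13. Every one of the 24 copies was higher in glabrous 3 than in glabrous 1, as were 70.9% of all tested genes. So were 43 of the 47 copies of the other pathway genes. Of the lists described below, the same held for all 14 tested indolic copies and 16 of 23 sulfate activation copies. It held for every tested copy of the xylem, phloem and epidermis markers, and for 6 of 16 copies of the dividing-cell markers. Among all tested codes, the glabrous difference of the 8 tested sums lay at the 97.8th percentile or above. Between the hairy leaves the 24 copies differed by a median of 0.52, where all tested genes had 0.27.

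The neighbouring indolic branch, which makes glucosinolates from tryptophan, differed 1.33-fold to 5.11-fold between the glabrous leaves, a range that takes in MYB28 and SOT17 of the chosen set. CYP79B2, its entry enzyme, read 144, 80.2, 34.5 and 144 TPM (4.17-fold), and CYP83B1 read 387, 236, 176 and 450 TPM (2.55-fold). SOT16, the sulfotransferase that prefers indolic substrates, read 715, 567, 398 and 530 TPM and was 1.33-fold higher in glabrous 3 than in glabrous 1. The indolic regulator MYB51 read 16.4 and 19.7 TPM in the hairy leaves against 0.65 and 3.33 TPM, with no overlap. Glabrous 3 was 5.11-fold above glabrous 1, and the sum was higher in the hairy line (2.83, SE 0.58, limma adjusted p = 0.0173). Over all tested codes 1.8% were called higher. How the MYB51 call depends on single leaves was not examined. The lines did not overlap for SOT16 either, nor for 29.5% of all tested codes. Of 14 tested copies of the 4 indolic genes, 2 were higher and 1 lower, beside 5.24% and 4.48% of all tested genes. Whether the branches differ in this respect was not tested.

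Sulfate activation supplies the sulfate donor that SOT17 and SOT18 use. APK2, a kinase that makes this donor, read 19.7, 22.0, 8.49 and 52.9 TPM, and was 6.23-fold higher in glabrous 3 than in glabrous 1, and APK1 read 95.1, 108, 73.8 and 197 TPM. APS1, which acts just before them, read 108, 91.4, 79.6 and 163 TPM. The reductases of the competing reductive route did not share this order of leaves, with APR1 at 14.6, 16.3, 13.0 and 14.3 TPM, APR2 at 27.5, 26.6, 34.0 and 57.8 TPM and APR3 at 45.0, 44.0, 31.2 and 28.1 TPM. SDI1, which represses aliphatic glucosinolate synthesis in Arabidopsis, read 16.8 and 11.2 TPM in the hairy leaves, 7.49 TPM in glabrous 1 and 4.47 TPM in glabrous 3. SDI1 was thus higher in both hairy leaves than in both glabrous leaves. The lines did not overlap for APR1, APR2 and APR3 either, nor for 29.5% of all tested codes. The bearing of SDI1 on the pathway levels was not tested. None of these sums passed the limma test between the lines, and among their 23 tested copies 0 were called, with 3 higher and 2 lower at an unadjusted p under 0.05, beside 4371 and 3317 of all 44247 tested genes.

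Markers of other cells and stages also differed between the glabrous leaves. Summed levels were 52.3, 36.5, 49.3 and 132 TPM over 6 xylem markers, and 20.2, 12.5, 11.7 and 31.7 TPM over 3 phloem markers. The 3 epidermis markers summed to 252, 167, 144 and 295 TPM and the 5 markers of dividing cells to 858, 678, 840 and 757 TPM. For myrosin idioblasts and guard cells, the 3 markers summed to 683, 636, 451 and 3133 TPM, nearly all of it TGG1, a myrosinase that splits glucosinolates. Of the 24 tested copies of these markers, 23 were higher in glabrous 3 than in glabrous 1. Single copies differed unevenly, from -5.33 to 8.75 on the log2(TPM + 1) scale. Glabrous 3 was thus higher than glabrous 1 by 2.68-fold in xylem, 2.71-fold in phloem, 2.05-fold in epidermis and 6.95-fold in idioblast markers. The ratio of glabrous 3 to glabrous 1 was 1.38 for the leaf mesophyll markers and 0.90 for the markers of dividing cells. No defining marker of xylem, phloem or epidermis was at 0 in any leaf. The part of these cells in the glucosinolate difference was not tested.

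The share of each subgenome varied little between leaves for CYP83A1, UGT74C1 and BCAT4, and more for the other genes. For CYP83A1 the A copies gave 62.4%, 63.6%, 57.8% and 57.8% of the TPM, and for UGT74C1 16.7%, 20.5%, 17.7% and 17.2%. BCAT4 was near equal between the subgenomes, with 50.1% to 58.2% from A. For MYB28 the A copies gave 5.8%, 5.3%, 5.3% and 18.6%, and for MAM1 they gave 81.6% in glabrous 3 and 91.4% to 93.0% in the other leaves. For MYB29, at low levels, they gave 54.6% in hairy 1, and 72.8% and 28.9% in the glabrous leaves 1 and 3. The shares of SOT18 were set apart by line, and its A copies gave 99.8% and 98.1% in the hairy leaves and 59.6% and 52.4% in the glabrous leaves. The C copy of SOT18 with the most TPM in both glabrous leaves was BnaC06g063470.4DH. It lies in the stretch of C06 described above, in which most tested genes were lower in the hairy line. Shares of CYP79F1 and SOT17 departed in glabrous 1 alone, where A copies gave 13.5% and 7.0%, and in that leaf the CYP79F1 sum was only 0.55 TPM.

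**Figure D5:**
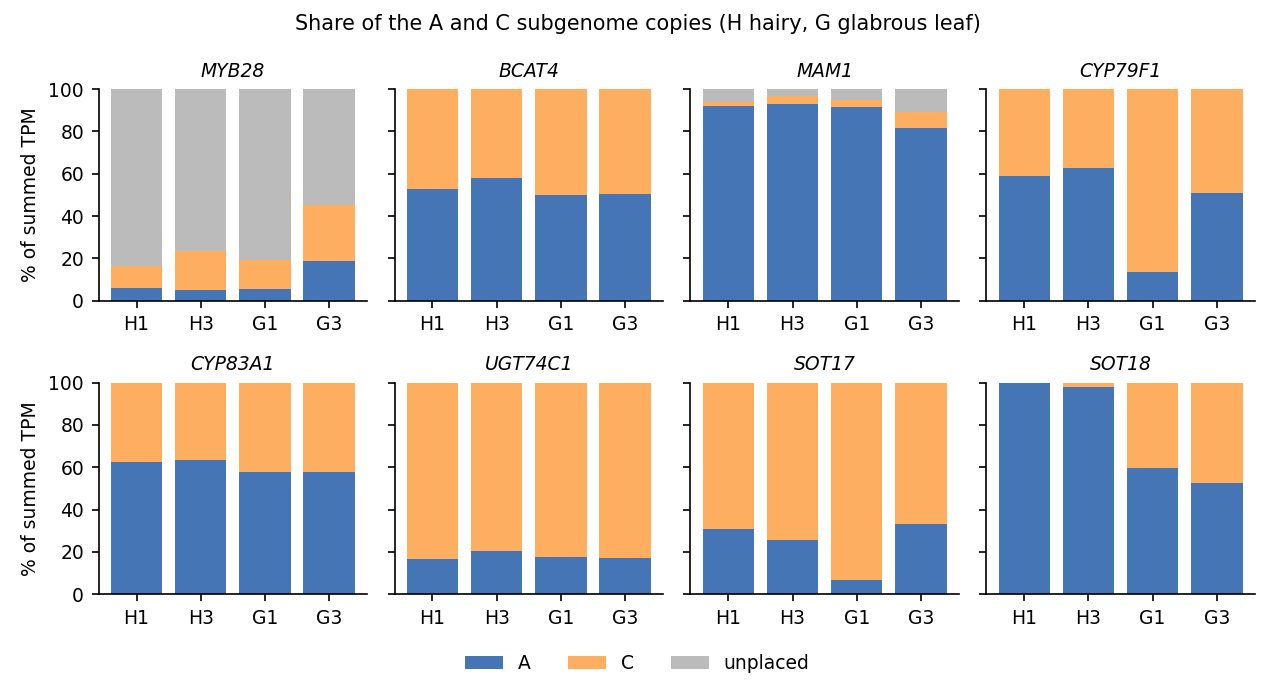
Percent of each gene's summed TPM that came from A, C and unplaced copies in hairy (H1, H3) and glabrous (G1, G3) leaves, as stacked bars. The C copies of SOT18 give 0.2% and 1.9% in the hairy leaves and 40.4% and 47.6% in the glabrous leaves, while the shares of CYP83A1 and UGT74C1 stay nearly level.

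In the authors' deposited table, 3 of the 50 member transcripts with a false discovery rate adjusted p had one under 0.05, all lower in the hairy line, against 4.05% of all transcripts with such a value. They were BCAT4 transcripts on A03 (adjusted p = 0.0329) and C03 (adjusted p = 0.0377) and the C06 SOT18 transcript (adjusted p = 0.021). In the authors' deposited table the SOT17 transcript on C05 had a fold change of 2.95 and an adjusted p of 0.123. For both BCAT4 copies glabrous 1 lay below the hairy leaves, and glabrous 3 alone was above them.

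Codes whose leaf profile was most like the mean of the 9 sums were sought by the Euclidean distance between centred log2(TPM + 1) profiles over the 4 leaves, among 13121 codes with a mean of at least 5 TPM. The nearest 8 outside the set were the glycosyltransferase gene AT2G16890, GSOX1, the homeobox gene HB-12, APL3 of starch synthesis, the transcription factor gene DREB2A, the beta-amylase gene BAM5, AT5G64550 and AT3G54600. HB-12 read 15.4, 12.6, 4.13 and 67.3 TPM, and DREB2A 23.0, 17.2, 8.26 and 65.3 TPM. Only GSOX1, second by distance at 0.31, belongs to the listed pathway. With 4 leaves, likeness of this kind is a description of these leaves. The measure weighs size as well as shape, and BCAT4, the steepest of the set, ranked 9631 by it.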

How the data were processed

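Values were available for 4 of the 6 leaves the labels list. The deposited table gives TPM per transcript and leaf, computed by the authors. It also holds, from the authors, mean TPM per line, the larger of these means (a signal on the TPM scale), a signed fold change, a log2 fold change, and a p-value with its false discovery rate, whose test is not stated. Reads were trimmed with cutadapt 1.9, per the submitters' processing notes; the sources used here name no aligner, genome build or annotation. Depth is unknown, so precision rests on 2 leaves per line, and nothing beyond the labels says how separate the plants were.

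TPM were summed per gene (2 member genes also hold transcripts with another code) and, separately, over all transcripts with the same Arabidopsis code. Each table was tested on log2(TPM + 1) by limma 3.58.1 (R 4.3.3; variance trend, robust shrinkage) for rows with at least 1 TPM in at least 2 leaves, with Benjamini-Hochberg adjustment over all rows. The procedure was tested on simulated data with 2 leaves per line. It recovered 5 of 67 changes of 1 on the log2 scale, 61 of 67 changes of 2 and 66 of 66 changes of 4. The simulated noise had the typical spread of genes of like level. This noise does not stand for the tested member copies, whose median SE was 0.85 against 0.46 over all tested genes. Members, lists and tests were chosen with earlier results of these data known. Named were all sums of the set, the 2 most abundant tested copies per gene, called copies, the 8 most abundant other pathway sums, the 8 nearest profiles and the indolic and sulfate sums; other copies, BASS5 and IPMDH1 were added with their values known. Alternatives left out each leaf or changed block, scaling, pseudocount, filter or variance prior. Python 3.11.15 and pandas 2.3.3 were used.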

Additional observations from a re-analysis of the deposited data

How the results depend on the processing

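The settings tried were a block for the replicate number, leaving out single leaves, quantile or TMM-like scaling, pseudocounts of 0.1 and 5 TPM, no filter or 5 TPM, and a constant prior; a crossed block was added after seeing the data. With 1 leaf left out in turn, log2 changes of the sums ran from -0.55 to 1.47 for MYB28, -4.31 to 2.07 for BCAT4, -2.61 to 2.07 for MAM1, -3.35 to 1.97 for CYP79F1, -2.05 to 0.90 for CYP83A1, -1.34 to 1.96 for UGT74C1, 0.84 to 2.65 for SOT17 and -1.37 to 1.30 for SOT18. The tested sums kept direction and side in the planned settings that used all 4 leaves. Fits without 1 leaf asked for 1 TPM in 1 leaf and so tested 25 to 30 member copies, some of them through 1 leaf alone. Member copies called ran from 0 to 5 higher and 0 to 14 lower (14 without glabrous 1, 5 higher without glabrous 3), other pathway copies from 0 to 4 higher and 0 to 12 lower, and all genes from 723 to 2314 higher and 641 to 1539 lower.

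For named copies the same ranges were, for MYB28, -0.016 to 1.44 (BnaS00111g0090.4DH) and -2.12 to 1.00 (BnaA03g048082.4DH); for BCAT4, -3.68 to 1.62 (A05) and -3.86 to 1.37 (C05); for MAM1, -2.19 to 2.06 (A03) and -3.47 to 1.73 (A02); for CYP79F1, -2.97 to 1.93 (A06) and -3.36 to 1.03 (C05); for CYP83A1, -1.86 to 1.07 (A04) and -2.20 to 0.69 (C04); for UGT74C1, -1.36 to 1.98 (C04) and -1.32 to 1.67 (A05); and for SOT18 on A07, -0.48 to 1.93. A pseudocount of 0.1 gave the CYP79F1 A06 copy 0.44, and one of 5 gave the UGT74C1 A05 copy -0.0038, against -0.52 and 0.17; the cause was not tested.

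Member copies called higher numbered 0 with a constant prior, no filter or quantile scaling, and 2 with the replicate block, under which 1834 genes were higher and 1704 lower; those called lower numbered 0 with a constant prior, no filter, a 5 TPM filter or a pseudocount of 5. At an unadjusted p under 0.05 these limma fits had 2 to 3 higher and, save 0 with the 5 TPM filter, 2 to 3 lower. The 5 TPM filter left 1 other pathway copy higher and 1251 genes lower. Same-numbered leaves deviated oppositely (r = -0.407), and with the crossed block 3921 genes were higher and 3039 lower, with 5 other pathway copies higher. The SOT17 sum then passed in limma (1.74, adjusted p = 0.0199). The crossed pairing was chosen on these same data and no label states it, so nothing is concluded from that pass. Scaling moved the median of all genes by under 0.1. With depth unknown, levels near 0 TPM have no counting limit.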
